A study of Homo sapiens with 16 samples.

Results

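The transcripts of the oxidative phosphorylation machinery were followed in MCF10HER2 cells during 45 h of exposure to CP724714, an inhibitor of the HER2 kinase. MCF10HER2 is 1 line, derived from MCF10A breast epithelial cells, which are not transformed, and it stably overexpresses HER2, a receptor tyrosine kinase. Parallel cultures in serum-free medium with EGF and hydrocortisone, and without insulin, received the inhibitor at 1 µM with a change of medium, and RNA was collected every 3 h. The 0 h culture was the only untreated one, each of the 16 time points has 1 array, and no vehicle-treated culture was analysed here, so effects of the inhibitor, of fresh medium and of time in culture cannot be told apart. All gene symbols that begin with NDUFA, NDUFB, NDUFC, NDUFS, NDUFV, UQCR, COX4 to COX8 or ATP5, together with SDHA to SDHD, were taken as members, and each gene was represented by its brightest detected probe. This gave 83 genes of the 18190 symbols on the array: 39 in complex I, 4 in complex II, 6 in complex III, 18 in complex IV and 16 in complex V.

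Oxidative phosphorylation takes place at the inner mitochondrial membrane. Complexes I and II pass electrons from NADH and succinate to ubiquinone, complex III hands them to cytochrome c, and complex IV reduces oxygen. The proton gradient that complexes I, III and IV build is used by complex V, the ATP synthase, to make ATP. Complex II is encoded wholly in the nucleus, whereas the other complexes also contain subunits encoded by mitochondrial DNA, which the symbol rule does not cover. Some matches are not structural subunits: NDUFAF1 is an assembly factor of complex I, COX4NB (now EMC8) is a neighbor of the COX4 gene that belongs to an endoplasmic reticulum complex, and ATP5S (now DMAC2L) is a coupling factor-like protein. They were kept and are named as such.

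Of the 83 genes, 77 were detected (detection p under 0.05) on 3 or more arrays and were tested, and 74 of these were detected on all 16 arrays. The 6 others were detected on no array, and 5 of them, COX4I2, COX6A2, COX6B2, COX7B2 and COX8C, are tissue-restricted or testis isoforms of complex IV subunits. The remaining one was the probe of NDUFA5, an accessory subunit of complex I, with a highest deposited intensity of 231. NDUFB4 (5 arrays) and NDUFS1 (6 arrays) were near background although both are ordinary complex I subunits, so these probes report little about their genes. The members were otherwise bright, with a median intensity per array between 5924 at 9 h and 13411 at 0 h, and 19 of them exceeded 30000 on an array, where the highest probe reached 66159 to 70425.

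The arrays differed in ways that touch the results. Fewer probes were detected at 9 h (10374) and 18 h (10363) than on any other array (10786 to 11436). The background intensity was 136 to 149 on the 8 arrays of 0 to 21 h and 164 to 174 on the 8 arrays of 24 to 45 h, so trends were also fitted within each of these windows. Of 12 breast epithelial markers on the array, not all of them basal, 11 were detected on 3 or more arrays. KRT5 lay between 14.51 and 15.19 on the log2 scale. KRT14 was detected on 1 array and the ERBB2 probe on 7. CDH1, TP73L and ERBB2, counted among the 11, were near background and reached only 8.12, 8.17 and 8.01. Of the markers of other cell types, 7 of 20 were detected on 3 or more arrays, and all of these but CD68 stayed below 8.47; collagens COL1A1 and COL1A2 were detected on none.

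The members as a whole lay lower on the 3 h array than on the untreated array. At 3 h, 72 of 77 members were below their 0 h value, against 48.0% of all 12321 tested probes, and the median difference was -0.20 on the log2 scale for the members and 0.00 for all tested probes. Among the 1005 tested probes as bright as 3 in 4 of the members, 50.6% were below 0 h. The count covered 36 of 38 members of complex I, 4 of 4 of complex II, 6 of 6 of complex III, 10 of 13 of complex IV and 16 of 16 of complex V, so the difference was spread over all 5 complexes. The 3 h array was the lowest of the 16 for 29 members, against 15.4% of all tested probes, and the highest for none, against 16.6%. The 0 h array was the highest for 25 members, against 10.9% of all tested probes, so the gap rests on both arrays. As there is 1 array at each time, these counts have no test, and the members share the same pair of arrays.

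**Figure D1:**
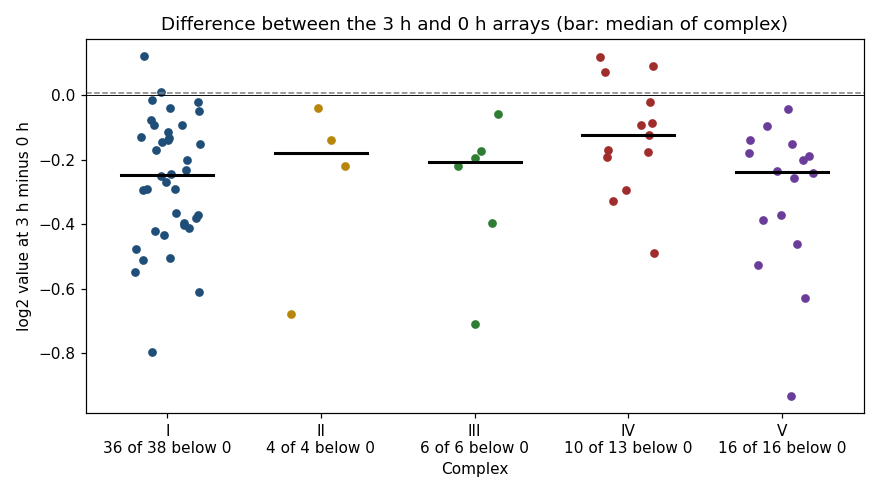
Difference between the 3 h array and the untreated 0 h array for each tested gene (points, log2 scale), by complex; black bars are medians of the complex and the dashed line is the median of all tested probes. All 16 genes of complex V and all 6 of complex III lie below 0, while 3 genes of complex IV lie above it.

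The genes with the widest gap at 3 h came from 4 complexes. ATP5G1, one of the genes for the proton-carrying ring of the ATP synthase, was 0.93 log2 units lower at 3 h than at 0 h (12.45 against 13.38), NDUFB6, an accessory subunit of the membrane arm of complex I, was at 11.31 against 12.10, and UQCRC2, a core protein of complex III, was at 9.21 against 9.92. SDHB, the iron-sulfur subunit of complex II, went from 13.76 to 13.08 and was back at 13.77 by 12 h, after which it stayed between 13.76 and 13.87. The 3 members of complex IV that lay above 0 h at 3 h were COX7A1, COX7A2L and COX4I1, by at most 0.12. NDUFA4, which was first assigned to complex I and is now known as a complex IV subunit, was also above 0 h, by 0.01.

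Other mitochondrial gene lists were not uniform at 3 h. Of the mitochondrial ribosomal protein genes 63 of 76 lay below 0 h (median -0.26), of the assembly factors 20 of 24, and of the genes of the tricarboxylic acid cycle and pyruvate dehydrogenase 13 of 17. Of the regulators of mitochondrial biogenesis and mitochondrial DNA expression 7 of 21 lay below 0 h (median 0.07), but they did not move as a class. Their differences ranged from -2.35, the lowest value of all tested probes, to 0.79. Some were also near background at 0 h, such as GFM2 (7.96) and GABPA (8.07), so their direction says little. The members were still mostly below 0 h afterwards, with 55 of 77 at 6 h, 54 at 9 h, 46 at 12 h and 41 to 55 at all later times. Of all tested probes 48.6 to 50.6% were below 0 h at these times. The lowest count of members, 41 at 27 h, was 53.2% and so near that share. The median difference of the members was never again beyond -0.15.

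**Figure D2:**
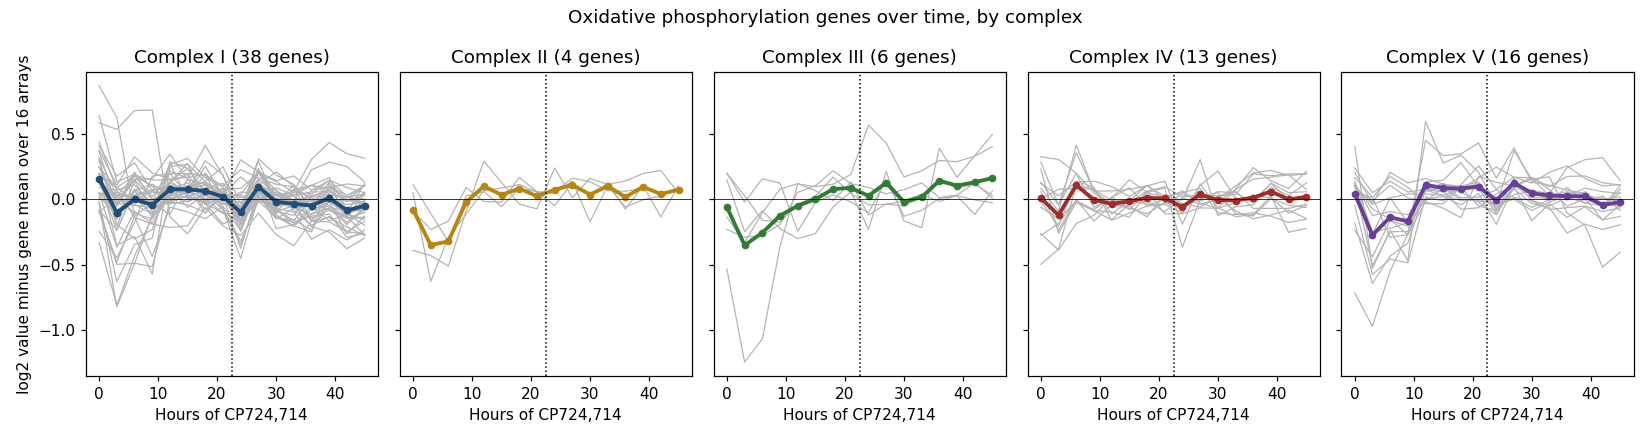
Normalized log2 values of the 77 tested genes by complex, each gene minus its own mean over the 16 arrays (grey) with the mean of the complex (colored line) against hours of inhibitor; the dotted line separates the arrays of 0 to 21 h from those of 24 to 45 h. The mean of every complex is lowest at 3 h. The mean of complex III, though not its median, is highest at 45 h, and the mean of complex I is highest at 0 h.

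Complexes then took different courses. The mean of complex II, over its 4 genes, was -0.35 at 3 h relative to the mean over all arrays and averaged 0.06 to 0.08 in each later set of 4 arrays from 12 h on. The mean of complex III went from -0.35 at 3 h to 0.16 at 45 h, its highest point, with UQCRC2 moving most of its 6 genes. The median over these genes was 0.05 at 45 h, below the 0.12 at 42 h. By the mean, complex V was at -0.27 at 3 h and highest at 27 h (0.13). Complex IV ranged only from -0.12 to 0.11, and complex I was highest on the untreated array (0.16). Pairs of complex II genes had a median correlation over the 16 arrays of 0.55 (6 pairs), pairs within complex V of 0.32 (120 pairs) and pairs within complex I of 0.26 (703 pairs), against 0.10 within complex IV (78 pairs), 0.14 within complex III (15 pairs) and -0.00 among an evenly spaced subset of the tested probes. The points of each correlation share the same 16 arrays and their differences in brightness.

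Time dependence was tested with limma by a spline of time with 4 degrees of freedom, adjusted by the Benjamini-Hochberg procedure over all tested probes at a threshold of 0.05. It called 31 of 77 members, against 41.9% of all tested probes and 58.0% of the probes of like brightness, so the members were called no more often than the background. Median scaling gave 14 members, the windows as a block 15 and sets of 4 successive arrays as a block 4. With quantile normalization and no block, 14 of 38 were called in complex I, 1 of 4 in II, 3 of 6 in III, 6 of 13 in IV and 7 of 16 in V. Most members moved little: the ratio of the highest to the lowest array had a median of 1.41-fold over the members. It was 1.34-fold over all tested probes and 1.64-fold over the probes of like brightness.

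A straight line in hours gave each member a direction, given below as a log2 difference across the 45 h, with the SE. In this fit 13 members rose, against 12.9% of all tested probes called higher, and 15 fell, against 11.5% called lower. Among the probes of like brightness 21.9% were called higher and 17.6% lower. When arrays were scaled to a common median instead, the split of the members was 14 against 1, with no share of all tested probes taken for that scaling. By complex and with quantile normalization, complex I had 2 rises and 10 falls, complex II 1 rise, complex III 2 rises, complex IV 5 rises and 3 falls, and complex V 3 rises and 2 falls, and no difference between complexes was tested. The median change was -0.10 in complex I (0.070 with median scaling), 0.24 in II, 0.26 in III, 0.11 in IV (-0.0079 with the windows as a block) and 0.08 in V, beside -0.00 over all tested probes. With sets of 4 arrays as a block the medians of complexes II and V turned to -0.035 and -0.23. In the arrays of 24 to 45 h alone, scaled to 45 h, they turned to -0.034 and -0.13. With the 2 windows as a block 3 members were called in place of 28. With sets of 4 successive arrays as a block none was, and at an unadjusted p under 0.05 there were then no rises and 5 falls.

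**Figure D3:**
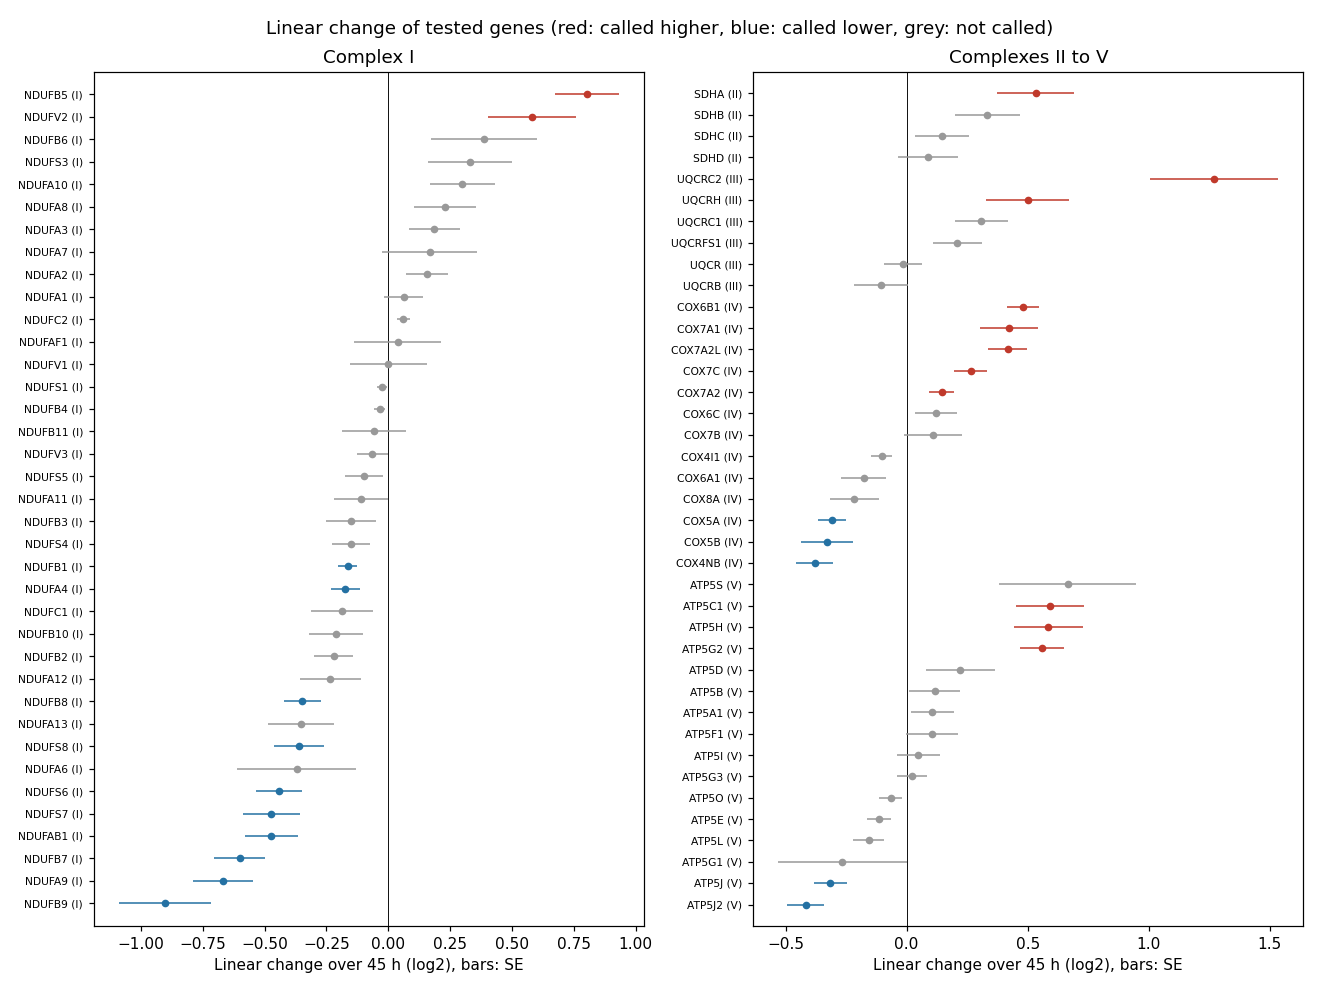
Linear change over 45 h (log2) of the tested genes, all but 1, each with its SE, complex I on the left and complexes II to V on the right; red was called higher, blue called lower and grey not called at an adjusted p of 0.05. With quantile normalization complex I holds 10 of the 15 called falls, and UQCRC2 of complex III has the largest rise, 1.27.

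Sequence just upstream of the start site is shown for the 3 members with the largest called rise and the 3 with the largest called fall whose promoter could be printed, because these 6 moved in opposite directions. Each line holds the 120 bases before the RefSeq start (GRCh38.p14), 5′ to 3′ on the gene's strand, and capitals mark a match to one of 5 motifs searched on both strands: the NRF1 core GCGCANGCG, the ETS or GABP site CCGGAAG, YY1 AAGATGGC, the ERR motif CAAGGTCA and the E-box CACGTG.
UQCRC2, rise, chr16:21953241-21953360, plus strand: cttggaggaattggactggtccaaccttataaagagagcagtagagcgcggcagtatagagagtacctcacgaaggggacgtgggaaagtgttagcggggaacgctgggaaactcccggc
ATP5C1 (now ATP5F1C), rise, chr10:7788057-7788176, plus strand: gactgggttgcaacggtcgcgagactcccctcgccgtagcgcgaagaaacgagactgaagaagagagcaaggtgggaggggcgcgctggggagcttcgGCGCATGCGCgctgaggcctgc
ATP5H (now ATP5PD), rise, chr17:75046970-75047089, minus strand: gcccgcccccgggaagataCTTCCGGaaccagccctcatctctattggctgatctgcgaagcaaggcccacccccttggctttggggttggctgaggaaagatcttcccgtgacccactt
NDUFA9, fall, chr12:4648994-4649113, plus strand: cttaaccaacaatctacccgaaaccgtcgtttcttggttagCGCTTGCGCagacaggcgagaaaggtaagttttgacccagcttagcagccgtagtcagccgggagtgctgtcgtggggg
NDUFB7, fall, chr19:14572067-14572186, minus strand: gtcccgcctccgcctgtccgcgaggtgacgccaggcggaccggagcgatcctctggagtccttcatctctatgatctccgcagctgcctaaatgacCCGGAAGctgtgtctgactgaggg
NDUFAB1, fall, chr16:23596317-23596436, minus strand: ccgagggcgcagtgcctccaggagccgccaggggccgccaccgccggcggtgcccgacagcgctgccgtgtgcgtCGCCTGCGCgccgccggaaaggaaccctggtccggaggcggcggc

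NRF1 and GABP are transcription factors known for driving nuclear genes of the respiratory chain. In the 250 bases before the start, the NRF1 core was found in 20 of the 67 members matched to a promoter (29.9%), beside 12.7% of the 8708 promoters of tested symbols and 7.02% of all 27305 promoters. The ETS or GABP letters were found in 16 of 67 (23.9%), beside 15.4% and 8.82%. The YY1 letters were found in 1 member promoter, the ERR letters in 2 and the E-box in 6 (8.96%, beside 8.81% and 6.49%). The NRF1 core occurred in 3 of 11 members with a called rise and 5 of 12 with a called fall, and the ETS or GABP letters in 3 and 4, so both motifs were present on both sides. A match is a description of these letters and not a site of binding.

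In complex I, with quantile normalization, the called falls outnumbered the called rises and came from both arms. NDUFB9, an accessory subunit of the membrane arm, stayed at 14.15 to 14.30 up to 9 h, whereas all arrays of 12 to 45 h lay at 13.27 to 13.56. The 2 ranges do not overlap, but the split was set on this gene's values and no share of all tested probes was taken for it. Its linear change was -0.90 (SE 0.19, adjusted p = 0.0017), and its drop of 0.81 between 9 and 12 h was the largest fall of any member at that step. Across all tested probes this step had the largest root mean square difference of any pair of successive arrays (0.33, against 0.09 to 0.31 at the others). A step common to many probes thus falls at the same place, and its part in this result was not tested. Rises given below, among them those of NDUFB5, NDUFV2, SDHA, UQCRC2, ATP5C1 and ATP5H, also include this step and carry the same limit.

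NDUFA9, an accessory subunit near the ubiquinone site, was highest on the untreated array (12.14), between 11.53 and 11.69 from 3 to 21 h, and between 11.13 and 11.57 from 24 h on. Its linear change was -0.67 (SE 0.12, adjusted p = 0.00052), and it was 0.68 lower on the treated arrays than at 0 h in the fit of treated against untreated (SE 0.12). NDUFA6, which carries the LYR motif and partners the acyl carrier protein NDUFAB1, started at 11.12 on the untreated array and 10.88 on the 3 h array, then dropped to 10.13 (6 h) and 9.82 (9 h). The later arrays, 12 to 45 h, lay between 10.01 and 10.38. Its spline fit passed (adjusted p = 0.0032) although its straight line did not (-0.37, SE 0.24), as the change was complete by 9 h.

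The other called falls of complex I were smaller. NDUFB7, which lies on the intermembrane side, fell by 0.60 (SE 0.10), from 13.49 at 0 h to 12.85 at 45 h. NDUFAB1 fell by 0.47 (SE 0.11) and was the one member called within the arrays of 24 to 45 h, where it fell by 0.45 (SE 0.12, adjusted p = 0.040); it was level at 13.41 to 13.80 up to 27 h and at 13.15 to 13.23 from 36 h. NDUFS7 and NDUFS8, which carry iron-sulfur clusters on the path to the quinone site, changed by -0.47 (SE 0.12) and -0.36 (SE 0.10), and NDUFS6, a zinc-binding subunit, by -0.44 (SE 0.09). NDUFB8, NDUFA4 and NDUFB1 completed the list with -0.35, -0.17 and -0.16. Of the 7 core subunits tested, 2 fell and 1 rose, and of 30 accessory subunits 8 fell and 1 rose. NDUFA4, now assigned to complex IV, is counted by its symbol among these 8 and among the falls of complex I.

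The 2 called rises of complex I were NDUFB5 and NDUFV2. NDUFB5, an accessory subunit of the membrane arm, measured 12.43 to 12.46 on the arrays of 3 to 9 h, 12.85 to 12.97 on those of 12 to 21 h and 13.25 to 13.38 on the last 4, a linear change of 0.80 (SE 0.13, adjusted p = 0.00021), which turned to -0.50, not called, with sets of 4 arrays as a block. It was the one member whose arrays of 24 to 45 h all lay above all arrays of 0 to 21 h, against 0.649% of all tested probes; no member lay wholly below, against 0.601%. Its value at 0 h was 12.85, so the difference between the untreated array and 45 h was 0.41 log2 units. NDUFV2, the core iron-sulfur subunit of the NADH-oxidizing module, had a linear change of 0.58 over the 45 h (SE 0.18, adjusted p = 0.023). Its value was 12.48 at 3 h and 13.56 at 12 h and lay between 13.29 and 13.59 after that. In the arrays of 24 to 45 h alone its slope, scaled to 45 h, was -0.38 and not called. NDUFA10, whose spline fit passed (adjusted p = 0.034), had a linear change of 0.30 (SE 0.13) that was not called.

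All 4 complex II genes had a positive linear change, and 1 of them was called. SDHA, the flavoprotein that oxidizes succinate, lay between 9.49 and 9.61 from 0 to 6 h, reached 10.29 at 12 h and stayed between 9.93 and 10.24 from 15 h on, with a change of 0.53 (SE 0.16, adjusted p = 0.020), which turned to -0.35, not called, with sets of 4 arrays as a block. The changes of SDHB (0.33, SE 0.13), SDHC (0.15, SE 0.11) and SDHD (0.09, SE 0.12), the last of which are the membrane anchors, did not pass. At 45 h SDHB (13.77) and SDHD (11.17) were within 0.03 of their 0 h values, and SDHC was 0.19 above its own.

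The largest linear change among the members was that of UQCRC2 in complex III. It went from 9.92 at 0 h, through 9.21 at 3 h and 9.39 at 6 h, to 10.57 at 12 h, and lay between 10.55 and 11.02 from then on, with a linear change of 1.27 (SE 0.27, adjusted p = 0.0018). The change was -0.0056 with sets of 4 arrays as a block. It was -0.22, scaled to 45 h, in the arrays of 24 to 45 h alone, and neither was called. UQCRC1, its partner among the core proteins, lay between 12.74 and 12.84 up to 9 h and between 13.04 and 13.25 afterwards; its spline fit passed (adjusted p = 0.0086) and its linear change of 0.31 (SE 0.11) did not. UQCRH, the hinge protein that binds cytochrome c1, kept to 11.29 to 11.80 up to 33 h and lay at 11.76 to 12.09 from 36 h, a change of 0.50 (SE 0.17, adjusted p = 0.042). UQCRB, UQCRFS1 and UQCR were not called in either fit.

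Subunits of complex III whose symbols fall outside the rule moved the other way. CYC1, cytochrome c1 itself, fell by 0.49 (SE 0.10, adjusted p = 0.0016), from 14.18 at 0 h to 13.48 at 45 h, and fell within both windows. UCRC (now UQCR10), a small subunit, fell by 1.28 (SE 0.17, adjusted p = 4.65e-05), from 11.005 at 0 h to 9.40 at 45 h. Between the first and last arrays UQCRC2 was 1.91-fold higher and UCRC 3.04-fold lower, within the same complex.

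Complex IV had rises and falls of similar size. COX6B1, which faces the intermembrane space, rose by 0.48 (SE 0.07, adjusted p = 5.74e-05), from 14.73 at 0 h to 15.19 at 45 h. COX7A1, known as the heart and muscle isoform of subunit 7a, was detected on all 16 arrays, rose from 12.99 at 0 h to 13.60 at 6 h and lay between 13.38 and 13.73 afterwards, with a change of 0.42 (SE 0.12, adjusted p = 0.015). Whether its probe also reads the transcript of another 7a isoform could not be checked here. COX7A2L, a factor in the joining of complexes III and IV, rose by 0.42 (SE 0.08), and COX7C and COX7A2 rose by 0.26 (SE 0.07) and 0.14 (SE 0.05).

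The falls of complex IV were in the subunits on the matrix side and in COX4NB. COX5A fell by 0.31 (SE 0.06, adjusted p = 0.00078), from 14.65 to 14.77 up to 21 h down to 14.46 to 14.53 from 30 h. COX5B fell by 0.33 (SE 0.11, adjusted p = 0.029). COX4NB, which is no subunit of the complex, fell by 0.38 (SE 0.08, adjusted p = 0.0013), from 8.68 at 0 h to 8.21 at 45 h, near the background of the array. COX4I1 (-0.10), COX6A1 (-0.18), COX8A (-0.22), COX6C (0.12) and COX7B (0.11) were not called.

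In complex V called rises and falls both came from the stalks and the membrane part. ATP5C1, the gamma subunit of the rotating stalk, lay between 13.19 and 13.65 from 0 to 9 h and between 13.86 and 14.07 from 12 h on, and rose by 0.59 (SE 0.14, adjusted p = 0.0044). ATP5H, a subunit of the peripheral stalk, was between 14.39 and 14.51 from 3 to 9 h and at 14.95 to 15.22 afterwards, a rise of 0.59 (SE 0.14), but its 0 h value of 14.92 lay near the later level. With sets of 4 arrays as a block the changes of ATP5C1 and ATP5H turned to -0.23 and -0.19, neither of them called. ATP5J2, the f subunit of the membrane part, fell by 0.42 (SE 0.08, adjusted p = 0.00063), and ATP5J, coupling factor 6 of the peripheral stalk, by 0.31 (SE 0.07). In the catalytic head, ATP5A1 (0.11) and ATP5B (0.12) had no called linear change, although the spline fit of ATP5B passed (adjusted p = 0.011).

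The genes ATP5G1, ATP5G2 and ATP5G3 encode the same mature subunit c of the ATP synthase ring, and their probes did not move together. ATP5G2 rose by 0.56 (SE 0.09, adjusted p = 0.00022), from 14.15 at 0 h to 14.52 at 45 h with a highest value of 14.70 at 42 h. ATP5G1 swung from 13.38 on the untreated array down to 12.45 (3 h), up to 13.57 (12 h) and down again to 12.46 (42 h). Its linear change of -0.26 (SE 0.27) was not called. ATP5G3 stayed between 8.12 and 8.36 and was not called (0.02, SE 0.06). A dimmer second probe of ATP5G1 fell by 0.89 (SE 0.16, adjusted p = 0.00058), and a second probe of ATP5G2, detected on 5 arrays, had a change of -0.07 (SE 0.02, adjusted p = 0.030) but lay near background and reports little about its gene. Both probes of ATP5H, ATP5J and ATP5S had changes of the same sign, whereas those of ATP5D, a subunit of the central stalk, had changes of 0.22 and -0.16, neither of them called.

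**Figure D4:**
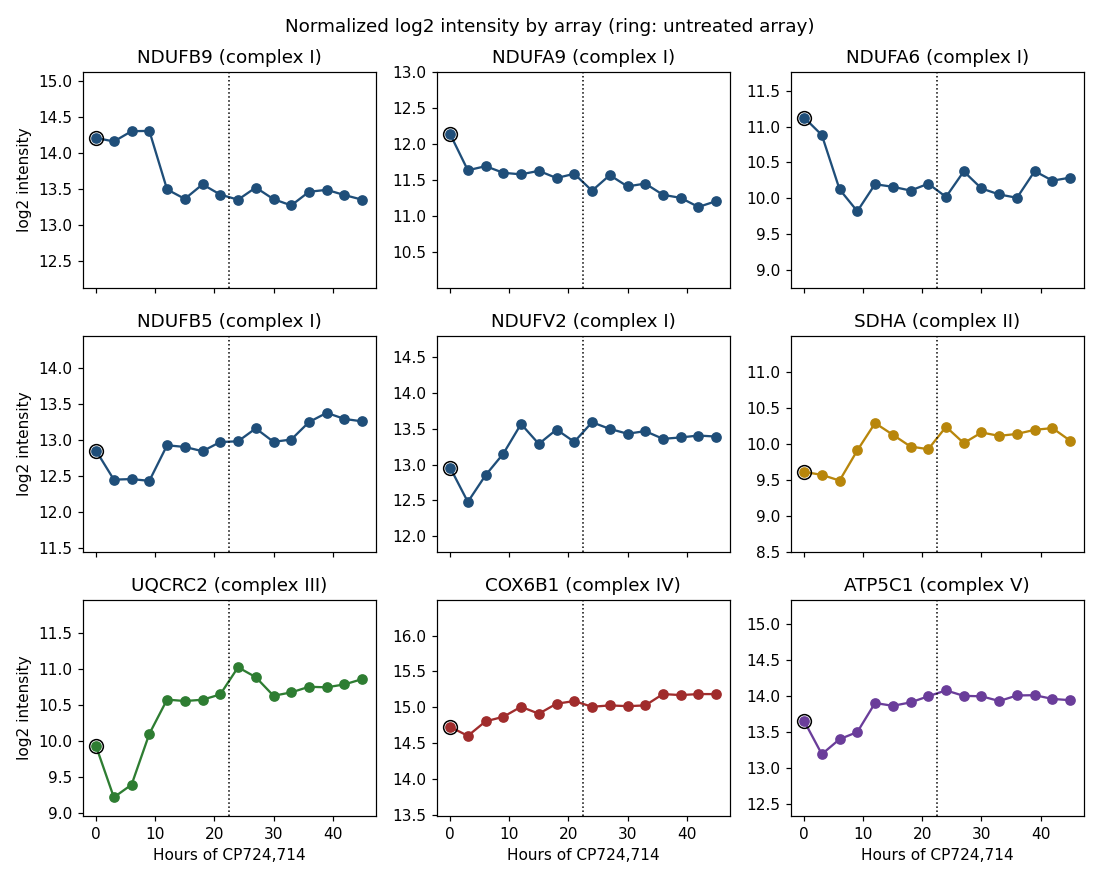
Normalized log2 intensity by hours of inhibitor for 9 genes, 1 array per point, with the untreated array ringed and a dotted line between the arrays of 0 to 21 h and of 24 to 45 h; each panel spans 3 log2 units. NDUFB9 steps down between 9 and 12 h, NDUFA6 drops by 9 h, and UQCRC2, NDUFV2, SDHA and ATP5C1 climb to a level reached by 12 h. Between 9 and 12 h all tested probes also had their largest root mean square difference between successive arrays.

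With a common estimate of the spread, more members were called within the first 21 h than later, but this order depended on the fit. A separate slope in each window gave 13 members that rose within 0 to 21 h, against 14.6% of all tested probes, and 4 that fell, against 15.6%. Among the probes of like brightness 23.8% rose and 15.7% fell. The split of 13 and 4 was 10 and 9 with cyclic loess and 11 and 0 with median scaling. Within 24 to 45 h no member was called higher, against 2.88% of all tested probes, and 1 was called lower, against 2.19%. Among the probes of like brightness these shares were 5.27% and 5.67%. At an unadjusted p under 0.05 within 24 to 45 h, 7 members were higher and 7 lower. With each window normalized and fitted alone the order was the reverse, with 6 members called in 0 to 21 h and 14 in 24 to 45 h, 8 of them higher and 6 lower. Array weights gave 22 and 16. The early rises, as log2 changes over 21 h, were led by ATP5S (1.49, SE 0.21), UQCRC2 (1.32, SE 0.27) and NDUFB6 (0.82, SE 0.24), and the early falls were NDUFB9 (-1.01, SE 0.19), NDUFA6 (-0.82, SE 0.27), COX4NB (-0.42, SE 0.08) and NDUFS7 (-0.36, SE 0.13). Without the 3 h array 9 members were called in the first window in place of 17, and without the 0 h array 26 were.

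The slopes of the windows differed for 9 members, 2 higher and 7 lower, a split that was 5 and 4 with cyclic loess and 0 and 3 with median scaling. For 7 of them the later slope was lower, against 12.1% of all tested probes: ATP5S, UQCRC2, NDUFAF1, NDUFV2, ATP5C1, UQCRC1 and NDUFAB1, and all of these but NDUFAB1 had risen in the first window. For 2 it was higher, against 12.7%: NDUFB9, whose fall had ended, and NDUFB11, whose slopes of -0.21 and 0.40 were not called by themselves. Among the probes of like brightness 19.9% had a lower later slope and 12.6% a higher one. ATP5S, the coupling factor-like gene, showed the widest difference, with 9.38 at 0 h, 10.55 at 12 h and 10.20 at 45 h. NDUFAF1, the assembly factor, rose within 0 to 21 h by 0.56 (SE 0.17), reached 9.82 at 24 h and was at 9.46 at 45 h, close to its start at 9.35.

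**Figure D5:**
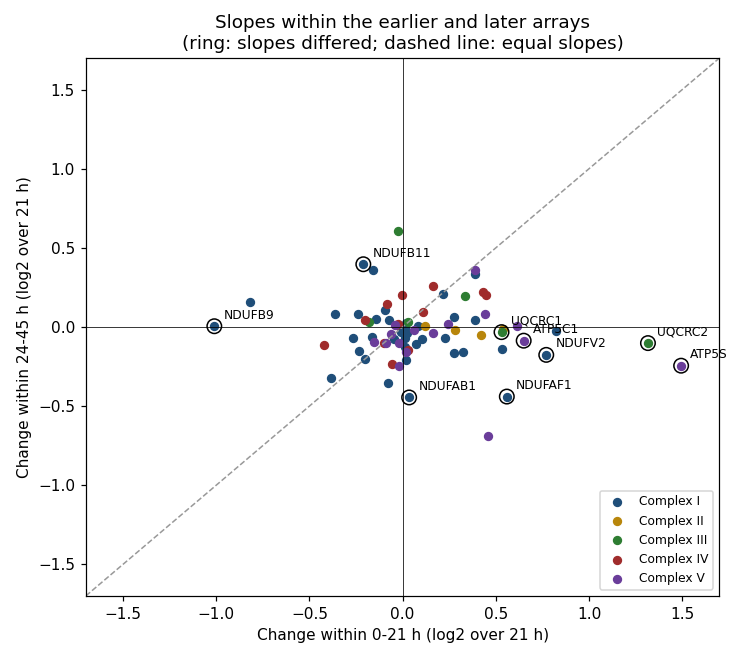
Change of each tested gene within the arrays of 0 to 21 h (horizontal) and of 24 to 45 h (vertical), both as log2 change over 21 h and colored by complex; rings mark the 9 genes whose slopes differed and the dashed line is equality. The spread is wide along the horizontal axis, from NDUFB9 at -1.01 to ATP5S at 1.49, and narrow along the vertical.

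Set against the single untreated array, most of the lower members were in complex I. In the fit with a centred spline among the 15 treated arrays, 11 members were lower than at 0 h, against 10.3% of all tested probes, and 9 of these were in complex I: NDUFA6, NDUFA9, NDUFB9, NDUFS6, NDUFS7, NDUFB7, NDUFS8, NDUFB10 and NDUFB8. The other two were COX4NB and ATP5J. Higher were 5 members, against 8.62%: ATP5S, UQCRC2, COX7A1, COX7A2L and COX6B1, none of them in complex I. Among the probes of like brightness 12.2% were called lower and 18.1% higher. In complex I 29 of 38 members lay below 0 h in this fit, whether called or not, with a median of -0.13. Of all tested probes 52.1% lay above 0 h in it, with a median of 0.00. The fit assumes that the lone untreated array varies like the others. With array weights it called no member, also at an unadjusted p under 0.05, without the 3 h array it called 25, and with median scaling 1 was higher and 5 were lower.

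By size alone, few members moved far from 0 h. At the 1.7-fold threshold of the study, 2 members were above the untreated array at some time, UQCRC2 (up to 2.14-fold at 24 h) and ATP5S (2.24-fold at 12 h), against 10.9% of all tested probes. Below it were 6, against 9.47%: NDUFA6 (2.47-fold at 9 h), NDUFA9 (2.02-fold at 42 h), NDUFB9 (1.92-fold at 33 h), ATP5G1 (1.91-fold at 3 h), NDUFB6 (1.73-fold at 3 h) and NDUFA7, which just passed the threshold at 9 h. NDUFS7 (1.69-fold) and NDUFA13 (1.67-fold) lay just outside. Of the 6, all but ATP5G1 are accessory subunits of complex I, and for ATP5G1, NDUFB6 and NDUFA7 neither the spline nor the linear fit passed. With median scaling 4 members were above and 55 below. The share of all tested probes past 1.7-fold was not taken under that scaling, where 76.1% of them lay below 0 h at 3 h.

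Genes that serve the same pathway gave a mixed picture in the linear fit, to be read against 12.9% of all tested probes called higher and 11.5% called lower. Over all related lists 21 of 169 genes rose and 30 fell, and with median scaling 26 and 4 did. With the windows as a block the counts were 6 and 4. With sets of 4 arrays as a block there were none either way (2 and 7 at an unadjusted p under 0.05). Shares of all tested probes were not taken for these alternatives. Of 17 genes of the tricarboxylic acid cycle and pyruvate dehydrogenase, 4 rose and 1 fell: PDHB, SUCLG1, SUCLG2 and DLD rose, by 0.89, 0.83, 0.60 and 0.54, and SUCLA2 fell by 0.42. Of 24 assembly factors 1 rose, OXA1L (0.87, SE 0.22), which inserts proteins into the inner membrane, and 5 fell: C6orf66 (now NDUFAF4), C20orf7 (now NDUFAF5) and C8orf38 (now NDUFAF6) of complex I and COX11 and SCO2 of complex IV. Of 21 regulators 1 rose, ESRRA (0.80, SE 0.17), a nuclear receptor for genes of energy metabolism, and 5 fell, among them TFAM (-0.50, SE 0.15), which packages mitochondrial DNA, and PPRC1 (-0.68, SE 0.22), a coactivator of the same family as PPARGC1A. The ADP/ATP carriers and channels had 2 rises of 9, SLC25A6 (0.64, SE 0.12) and VDAC2 (0.66, SE 0.09). Mitochondrial ribosomal proteins had 10 rises and 15 falls of 76, and the import machinery 3 rises and 2 falls of 16.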

How the data were processed

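The authors deposited, for each probe of Illumina human Ref-8 v2 beadchips, an intensity before normalization between arrays and a detection p-value; the table names no genome build. Intensities were corrected and quantile-normalized with neqc (limma 3.58.1, R 4.3.3; offset 16, which shrinks changes of dim probes). Testing was restricted to the 12321 of 20589 probes whose detection p was below 0.05 on at least 3 arrays. Each gene was read from its tested probe with the highest mean intensity. Fits in limma (lmFit, eBayes with trend) took the spread from the scatter about a curve in time, since each time has 1 array; that number limits the precision. P-values were adjusted by the Benjamini-Hochberg procedure over all tested probes, with 0.05 as the threshold. The fits were a spline of 4 degrees of freedom, a straight line, a line within each window of 8 arrays and treated against 0 h; the scripts were tested on simulated data.

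Members and lists were chosen with earlier results of these data known. Named were, per complex, the 3 largest rises and falls among called members, all SDH genes, the 3 largest called changes each way in the other fits, members changed 1.7-fold, isoform genes, probes that disagreed and matches that are no subunits; members of the ranked gene lists and other members named beside these were chosen after their values were seen. Current symbols came from RefSeq (GRCh38.p14): 64 members matched directly and 18 by synonym. Promoter sequences are from RefSeq on the same build. Alternatives covered background correction, scaling, filter, probe choice, variance model, array weights, blocks, windows and left-out arrays. The values of 1 member, which was counted with the others, are not reported here.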

Additional observations from a re-analysis of the deposited data

Results flagged for a closer look

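For 9 members the slope within 24 to 45 h differed from the slope within 0 to 21 h in limma (log2 over 21 h, later minus earlier). The difference was negative for ATP5S (-1.74, adjusted p = 0.0013), UQCRC2 (-1.42, adjusted p = 0.013), NDUFAF1 (-0.999, adjusted p = 0.0064), NDUFV2 (-0.95, adjusted p = 0.014), ATP5C1 (-0.74, adjusted p = 0.014), UQCRC1 (-0.56, adjusted p = 0.014) and NDUFAB1 (-0.48, adjusted p = 0.047). It was positive for NDUFB11 (0.61, adjusted p = 0.027) and NDUFB9 (1.02, adjusted p = 0.011). The windows also differ in background intensity, which was 136 to 149 in the first and 164 to 174 in the second, and the part of this in the differences was not tested. With sets of 4 successive arrays as a block none of the 9 was called, and at an unadjusted p under 0.05 4 members were higher and 1 lower.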

How the results depend on the processing

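No paired analysis was possible because no time was sampled by more than 1 array. Counts of members called, as reported, were 31 for the spline, 28 for the line, 17 and 1 for the slopes within 0 to 21 h and 24 to 45 h, 9 for their difference, 16 against 0 h and 8 at 1.7-fold. Median scaling gave 14, 15, 11, 0, 3, 6 and 58, and medians of 0.070, 0.54, 0.48, 0.28 and 0.28 for complexes I to V. The array window as a block gave 15 for the spline and 3 for the line, and medians of 0.55 for complex III and -0.0079 for complex IV. Sets of 4 arrays as a block gave 4 for the spline and 0 for the line, both windows and their difference, and medians of -0.035 for complex II and -0.23 for complex V. The arrays of 0 to 21 h alone gave 11 and 6, and medians (I to V, per 45 h) of 0.025, 0.75, 0.38, -0.036 and 0.25. The arrays of 24 to 45 h alone gave 7 and 14, and medians (per 45 h) of -0.034 for complex II, 0.068 for III and -0.13 for V. Array weights gave 19 slope differences, 16 slopes within 24 to 45 h and 0 members against 0 h. Slopes within 24 to 45 h numbered 4 with cyclic loess, 2 without the variance trend and 0 without a detection filter. The complex IV median was 0.0058 with cyclic loess and 0.023 without the filter, and a 2-fold threshold gave 4 members. The cause was not tested.

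Leaving out single arrays gave 26 to 39 members for the spline, 24 to 30 for the line, 9 to 26 and 0 to 3 for the windows, 7 to 16 for their difference (16 without the 0 h array), 12 to 25 against 0 h and 6 to 8 at 1.7-fold. The medians ranged from -0.13 to -0.06 in complex I, 0.12 to 0.29 in II, 0.19 to 0.31 in III, 0.03 to 0.14 in IV and 0.01 to 0.14 in V. For complexes II to V the lowest came without the 3 h array. Genes of the related lists with a linear trend, with alternatives chosen after seeing the data, numbered 51, and 42 to 53 without single arrays, 30 with median scaling, 10 and 0 with the window and the sets of 4 arrays as a block, and 13 in the arrays of 0 to 21 h alone. The count below 0 h at 3 h, with alternatives chosen after seeing the data, was 68 of 77 with cyclic loess and 77 with median scaling, where 76.1% of all tested probes were below.

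Of 429 linear changes of the 33 named genes under the other alternatives 335 kept direction and side of the threshold, 65 lost the call, 13 gained it and 16 reversed. With sets of 4 arrays as a block these were ATP5C1 (-0.23), ATP5H (-0.19), COX5B (0.036), NDUFB5 (-0.50), SDHA (-0.35) and UQCRC2 (-0.0056), none of them called. In the arrays of 0 to 21 h alone they were, scaled to 45 h, COX5B (0.064), NDUFAB1 (0.074) and UQCRH (-0.055). In the arrays of 24 to 45 h alone they were, again scaled to 45 h, ATP5C1 (-0.18), NDUFB9 (0.0088), NDUFV2 (-0.38), SDHA (-0.029) and UQCRC2 (-0.22). NDUFAF1 (-0.96) and NDUFB11 (0.85) also reversed there and were the ones called. Leaving out single arrays reversed none of 528.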
